A study of Mus musculus with 15 samples.

Results

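Cell division in the embryonic mouse cortex was followed through 43 genes of the cell cycle, out of 53337 genes summed from the deposited table, in mRNA-seq libraries of dorsal forebrain, the tissue that becomes the cerebral cortex. The genes were taken by name and by role: 8 genes of the entry into S phase, 13 genes of S phase (DNA synthesis), 20 genes of G2 and mitosis (G2/M) and 2 inhibitors that act in cell cycle exit. They were chosen by known function and not by a cut on expression values, but with earlier results of these data known. The question asked of them was whether the S phase genes, the G2/M genes and the exit genes differed after maternal exposure to arginine vasopressin (AVP), a peptide hormone of water balance and vessel tone whose infusion into pregnant mice is used as a model of preeclampsia.

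The 15 libraries came from C57BL/6J embryos at embryonic day 18 (E18), and each held the RNA of 1 dorsal forebrain. Dams carried a subcutaneous pump that released either AVP or saline, which the GEO labels call vehicle, from before breeding onwards, so every embryo of both groups developed in an implanted dam. Of the males, 4 were AVP-exposed and 4 were controls, and of the females 3 were AVP-exposed and 4 were controls, numbered here in the order of their records. The labels give 16 samples from 8 litters and tie no sample to a litter, so p-values measure the spread between these embryos and littermates could not be modelled. According to the study, the embryos of a group and sex came from independent litters. Fits and relations over both sexes can therefore hold littermates, which count there as independent embryos. Values are transcripts per 1000000 (TPM), which scale each library to the same total and correct for transcript length, and the depth of each library is unknown. In whole tissue, fewer dividing cells and less RNA of these genes per cell cannot be told apart.

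Cells enter the cycle when cyclin D with Cdk4 or Cdk6, and then cyclin E with Cdk2, inactivate the pocket proteins that hold E2F transcription factors in check. E2F factors then turn on the genes of replication licensing and nucleotide supply, and a later programme, marked by CCAAT boxes and by the cell cycle genes homology region (CHR) in its promoters, turns on the genes of mitosis. In the late embryonic cortex, radial glia of the ventricular zone and intermediate progenitors of the subventricular zone carry out these divisions, and the neurons made from them leave the cycle with the help of the inhibitors p27 (Cdkn1b) and p21 (Cdkn1a).

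In the promoters of the genes, E2F and CHR words differed in share between the 2 programmes, while CCAAT boxes were common in both. Promoters were taken from RefSeq on GRCm38.p6, as 250 bases before to 50 bases after a start listed there for each gene, and 35 of the 43 members matched. For E2f1, Cdk6, Mcm7 and Cdc6 this window lay wholly inside the gene as bounded by the GENCODE annotation used for the gene values. Mcm7 and Cdc6 are among the S phase promoters counted below with an E2F word, and Mcm7 among those with a CHR word. The words TTTCCCGC, TTTGGCGC, TTTCGCGC and TTTGCCGC were searched for E2F, CCAAT for the CCAAT box, and TTTGAA and TTCGAA for the CHR, on both strands. In 1 of the 35 promoters, matches of different motifs shared bases. An E2F word stood in 6 of 11 S phase promoters and in 1 of 17 G2/M promoters, against 2.32% of the first listed promoters of 27025 genes. A CHR word stood in 14 of 17 G2/M promoters and in 2 of 11 S phase promoters, against 19.4% of all. A CCAAT box stood in 15 of 17 G2/M promoters and in 8 of 11 S phase promoters, against 37.9% of all. A CCAAT box together with a CHR word stood in 13 of 17 G2/M promoters and in 2 of 11 S phase promoters, against 7.70% of all. A match of these short words is a description of the letters and not a binding site. Of the 2 exit members, the window taken for Cdkn1a held none of the searched words. Whether it lies at the start of the transcript that held 94% of the Cdkn1a TPM was not checked. The 4 promoters below are those of Mcm6, which held the most E2F words of the S phase genes, of Cdk1 and Top2a, the G2/M genes with the smallest p-values in females, and of Mki67, the gene of the proliferation marker Ki-67. They lie at chr1:128359656-128359955, chr10:69352863-69353162, chr11:99024140-99024439 and chr7:135716330-135716629, all on the minus strand, and are printed 5′ to 3′ with matches of the searched words in capitals.
Mcm6: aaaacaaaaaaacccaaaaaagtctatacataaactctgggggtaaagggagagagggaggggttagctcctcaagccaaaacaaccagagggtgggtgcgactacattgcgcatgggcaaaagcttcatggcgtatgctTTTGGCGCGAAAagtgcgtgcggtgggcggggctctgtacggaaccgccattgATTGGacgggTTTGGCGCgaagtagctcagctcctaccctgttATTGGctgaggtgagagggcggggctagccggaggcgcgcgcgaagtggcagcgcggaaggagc
Cdk1: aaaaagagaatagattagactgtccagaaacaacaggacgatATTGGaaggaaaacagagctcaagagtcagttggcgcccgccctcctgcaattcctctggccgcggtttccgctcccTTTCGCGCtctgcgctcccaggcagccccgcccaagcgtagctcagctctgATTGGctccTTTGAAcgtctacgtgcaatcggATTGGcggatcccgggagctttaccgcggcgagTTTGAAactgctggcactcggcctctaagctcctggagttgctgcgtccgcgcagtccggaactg
Top2a: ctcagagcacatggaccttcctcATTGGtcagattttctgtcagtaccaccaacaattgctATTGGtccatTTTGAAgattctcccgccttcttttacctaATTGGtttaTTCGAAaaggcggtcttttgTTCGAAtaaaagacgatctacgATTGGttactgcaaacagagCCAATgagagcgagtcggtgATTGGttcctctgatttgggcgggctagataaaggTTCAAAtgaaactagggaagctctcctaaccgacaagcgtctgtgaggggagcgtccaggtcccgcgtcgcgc
Mki67: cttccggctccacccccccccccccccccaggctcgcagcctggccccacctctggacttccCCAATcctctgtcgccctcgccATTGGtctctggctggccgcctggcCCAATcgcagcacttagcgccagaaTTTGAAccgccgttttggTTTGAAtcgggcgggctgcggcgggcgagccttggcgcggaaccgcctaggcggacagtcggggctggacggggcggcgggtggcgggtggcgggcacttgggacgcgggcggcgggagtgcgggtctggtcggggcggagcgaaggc

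The library labelled saline male 3 held the sex-linked transcripts of a female. Its Xist level was 266 TPM against 0.121 to 1.13 TPM in the other males and 174 to 295 TPM in the females, and its 4 Y-linked genes summed to 0.489 TPM against 102 to 155 TPM in the other males. It is named by its label throughout, and the male counts, role medians and member fold changes without it follow the comparison in males. Markers of the labelled tissue were present in every library. The 10 cortical neuron markers summed to between 3401 and 4391 TPM and the 12 radial glia markers to between 2076 and 3395 TPM. The 10 markers of the ganglionic eminence, the ventral neighbour of the dorsal forebrain, summed to between 164 and 275 TPM.

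The members were all measured above the filter on low values, which kept genes that reached 1 TPM in 50% or more of the libraries compared. Cdk4, the partner kinase of D cyclins, had the highest level of the 43 with a mean of 561 TPM over the 15 libraries, and Pcna, the sliding clamp of DNA polymerase, came next with 138 TPM. Mcm7, a subunit of the replicative helicase, had a mean of 104 TPM and Cdkn1b had 83.6 TPM. The lowest were Aspm, a spindle pole protein needed for full brain size, with 3.04 TPM, and Cdc6, which loads the helicase onto origins, with 2.83 TPM. G2/M genes had means from 3.04 to 63.6 TPM, the highest being Hmgb2, a chromatin protein, and S phase genes from 2.83 to 138 TPM.

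As deposited, the median gene varied more between libraries among the G2/M genes than among the S phase genes. The coefficient of variation over the 15 libraries had a median of 22.5% for the 20 G2/M genes, with a range from 18.4% to 28.9%, and a median of 13.9% for the 13 S phase genes. The 8 entry genes had a median of 16.4%, and the 15078 genes tested over all libraries had a median of 15.5%. The highest library held 1.67 to 2.61 times the level of the lowest for single G2/M genes and 1.32 to 2.29 times for single S phase genes. The S phase genes ran from 8.46% to 23.6%, with Cdc6, the lowest of the 43 in level, at the top. The median level was 14.5 TPM for G2/M and 19.2 TPM for S phase genes, and no allowance was made for level.

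The G2/M genes varied together across libraries. Of the 20 genes, 15 had their lowest level in AVP male 1, 10 had their highest level in AVP male 4 and 6 had their highest level in AVP female 3. AVP male 1 and AVP male 4 received the same treatment and have the same sex. Of the 13 S phase genes, 5 were lowest in AVP male 1, 5 were highest in AVP male 4 and 4 were highest in AVP female 3. After scaling to the median ratio of all genes, AVP male 1 was lowest for only 3 of the 20 G2/M genes, while AVP female 3 was highest for 14 and AVP male 4 for 5. The median gene of all tested lay at −0.15 in AVP male 1 and at −0.17 in AVP female 3, on the log2 scale relative to the mean of the 15 libraries. The cause of these shifts was not tested.

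**Figure D1:**
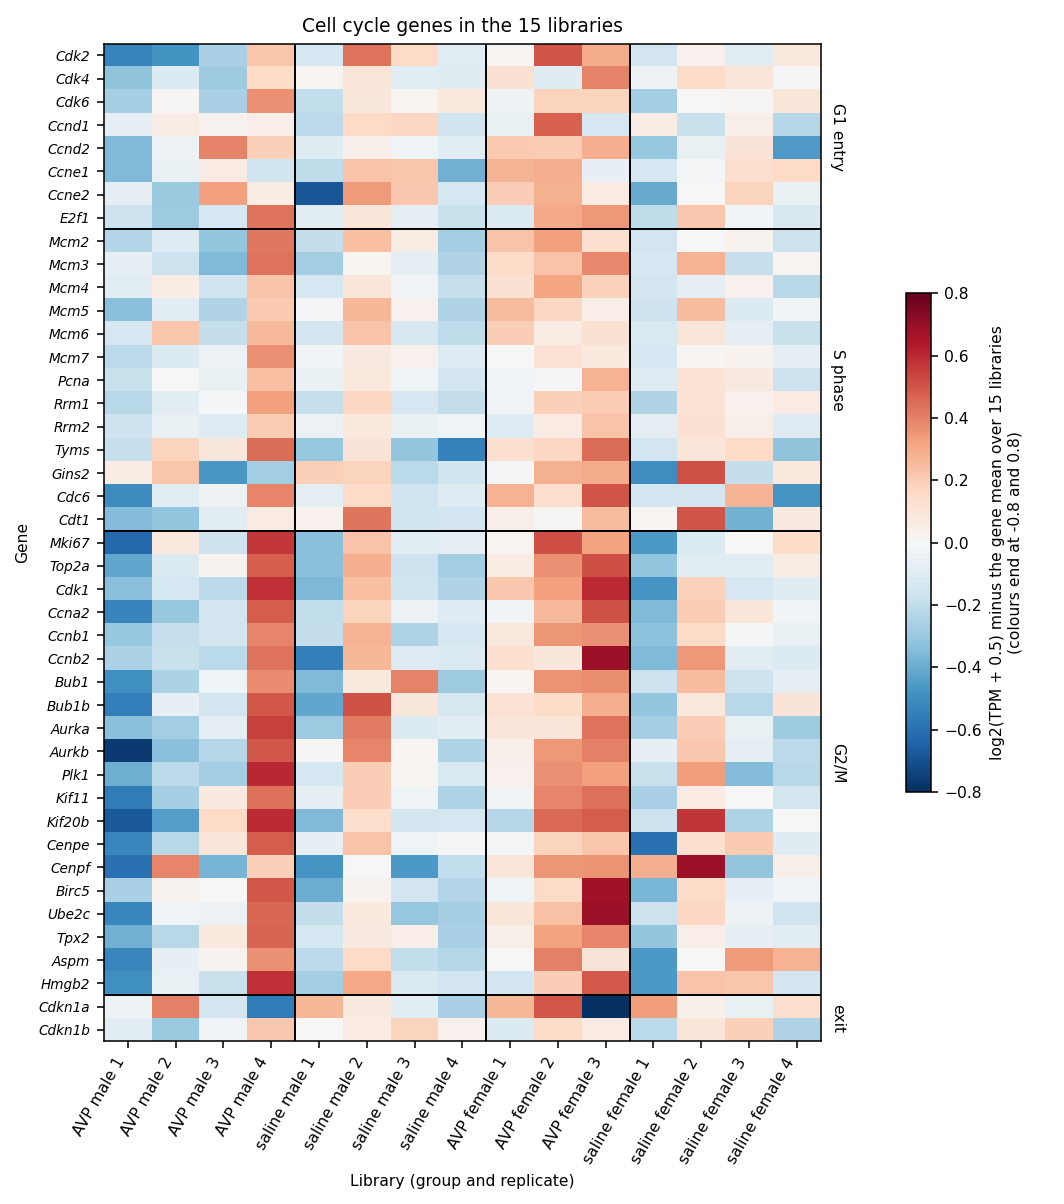
Heat map of the 43 members (rows, by role) in the 15 libraries (columns, by group), coloured by log2(TPM + 0.5) minus the mean of the gene over the 15 libraries, with colours ending at −0.8 and 0.8. The G2/M block is blue in AVP male 1 and red in AVP male 4 and AVP female 3, and Cdkn1a has the opposite colours in the latter pair.

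For each role, the mean log2 difference of its genes from their 15-library means was taken as a level per library. The G2/M level was −0.48, −0.14, −0.09 and 0.48 in AVP males 1 to 4 and −0.27, 0.21, −0.09 and −0.18 in saline males 1 to 4. On this scale the 4 AVP males held both the lowest and the highest G2/M level of all 15 libraries. Relative to the median of all genes, saline male 1 and AVP male 1 were both lowest at −0.33, and AVP female 3 was highest at 0.60, ahead of AVP male 4 at 0.46. The G2/M level was 0.03, 0.30 and 0.43 in AVP females 1 to 3 and −0.29, 0.19, −0.05 and −0.06 in saline females 1 to 4. AVP female 1 lay below saline female 2, so the female groups overlapped.

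**Figure D2:**
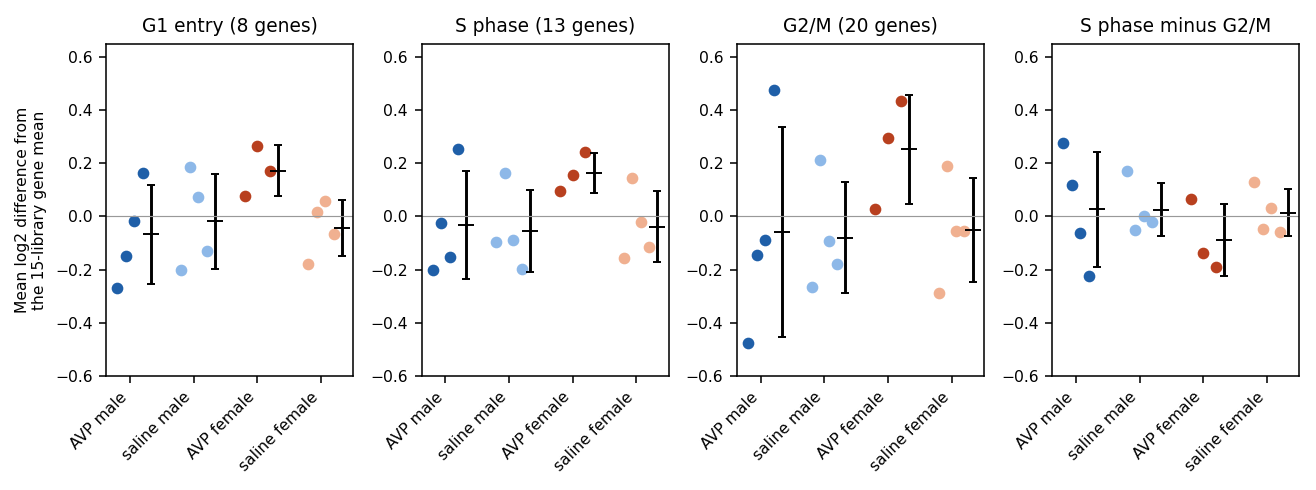
Mean log2 difference from the 15-library gene mean of the entry, S phase and G2/M members, and the S phase level minus the G2/M level, in each library (points) by group, with mean and SD (black). The G2/M level of AVP males runs from −0.48 to 0.48, and AVP females have the highest mean in the first 3 panels, at 0.17, 0.17 and 0.25.

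In females, cell cycle genes were higher after maternal AVP in direction, but none passed the test over all genes. With limma on log2(TPM + 0.5), 0 of 43 members had a Benjamini-Hochberg adjusted p under 0.05 in the comparison of 3 AVP with 4 saline females, against 0% of the 15132 genes tested. At an unadjusted p under 0.05, 8 of 43 members (18.6%) were higher, against 2.34% of all genes, and 0 were lower, against 2.17%. Of the 43, 42 had a positive fold change, Cdkn1a being the exception, while 36.9% of all genes tested had one. The median log2 fold change was 0.19 for the entry genes, 0.20 for the S phase genes and 0.32 for the G2/M genes, beside −0.05 for all genes. The count of 8 was 3 without AVP female 3 and 3 without saline female 1, 4 without AVP female 2 or saline female 4, and 11 and 12 without saline female 2 and AVP female 1, while 1.79% to 2.51% of all genes were higher in the 7 fits that left out 1 library. It was 4 with the run of sample numbers as a term (2.26% of all genes) and 4 in 1 fit of all 15 libraries (2.06%). The G2/M median relative to all genes was 0.37, and 0.19 without AVP female 3.

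In males, the direction of the members depended on the scale between libraries. Of the 43, 23 had a positive fold change and 20 a negative one on the deposited scale, where 26.4% of all genes were positive and the median of all genes was −0.10. With median-of-ratios scaling 36 members were positive, against 48.8% of all genes, and with quantile normalization 38, against 55.0%. In the comparison of 4 AVP with 4 saline males, 0 of 43 members passed the adjusted test in limma, against 0.00655% of the 15271 genes (1 gene). At an unadjusted p under 0.05, 1 member (2.33%), Tyms, was higher, against 1.11% of all genes, and 0 were lower, against 12.4%. Over all genes that was 169 higher and 1888 lower, which became 900 and 847 with median-of-ratios scaling. The 1888 became 1069 without saline male 3 and 1048 without AVP male 1, and the 169 became 98 without saline male 4 and 104 without AVP male 2. Relative to all genes, the medians were 0.10 for entry, 0.11 for S phase and 0.13 for G2/M. Without AVP male 4 the G2/M median relative to all genes turned to −0.05, 8 members were positive, against 25.8% of all genes, and 4 were lower at an unadjusted p under 0.05, against 18.5% of all genes. Without AVP male 1 that median was 0.23 and 34 members were positive, against 32.9% of all genes.

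Without saline male 3, the library with female transcripts, 24 of 43 members were positive in males, against 30.1% of all genes, and the medians relative to all genes were 0.09 for entry, 0.10 for S phase and 0.11 for G2/M. No member was past an unadjusted p of 0.05 in limma, and 0 passed the adjusted test. Tyms had a log2 fold change of 0.38 ± 0.19 (SE) with an unadjusted limma p of 0.0781. The log2 fold change of Cdk2 was −0.33 ± 0.22 (SE), that of Birc5 0.27 ± 0.18 (SE) and that of Mki67 0.028 ± 0.27 (SE). Mcm2, Ccnb1 and Bub1 changed sign, to 0.018 ± 0.20 (SE), −0.045 ± 0.19 (SE) and 0.089 ± 0.22 (SE). Over the other members it ran from −0.27 for Cdt1 to 0.16 for Ccne2.

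The labelled sample numbers fell into a pair of runs, S1 to S8 and S13 to S20, which the labels do not call batches. The male difference in the G2/M level had opposite signs within them. It was −0.28 in the first run, with 2 AVP and 2 saline males, and 0.33 in the second, also with 2 and 2, where it was 0.37 without saline male 3. The female difference was 0.08 in the first run, with 1 AVP and 2 saline females, and 0.42 in the second, with 2 and 2.

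**Figure D3:**
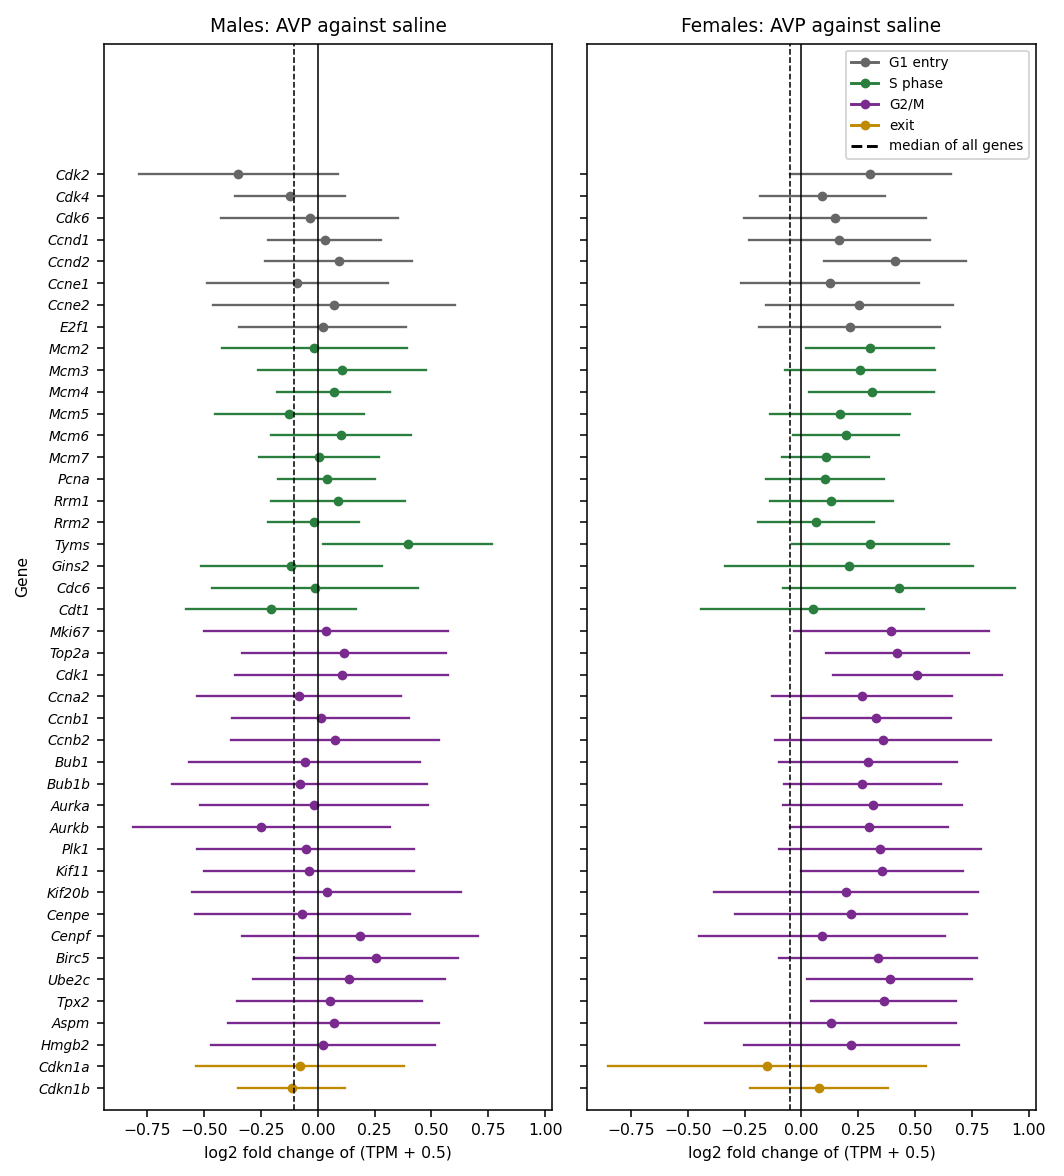
Log2 fold change of (TPM + 0.5), AVP against saline, of each member with its 95% confidence interval from limma, in males (left) and females (right), coloured by role. The dashed lines mark the median of all genes, −0.10 in males and −0.05 in females, and in females every G2/M point lies right of 0.

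An interaction term over all 15 libraries tested whether the sexes differed. No member passed (0 of 43, against 0% of the 15078 genes), although 40 of 43 had a more positive fold change in females than in males, as had 61.2% of all genes. At an unadjusted p under 0.05, 1 member was positive, against 2.52% of all genes, and 0 were negative, against 1.62%. Without AVP male 4, 12 members were positive at that threshold, against 4.74% of all genes. Without saline male 3, 40 of 43 members were positive at any p, against 58.0% of all genes. Then 1 was positive at that threshold, against 1.54% of all genes. Without AVP female 3 the G2/M median of the interaction relative to all genes was 0.08 in place of 0.24, and the S phase median was −0.06 in place of 0.08. With both sexes in 1 fit and sex as a term, 0 of 43 members passed, against 0% of genes. At an unadjusted p under 0.05, 4 members (9.30%) were higher after AVP, against 0.683% of all genes, and 0 were lower, against 9.69%. Those 4, Tyms, Birc5, Mcm4 and Ccnd2, became 11 with median-of-ratios scaling, against 2.99% of all genes, and 14 with quantile normalization, against 4.09%. The count was 1 without any one of AVP male 4, AVP female 3, saline male 1, saline male 4 and saline female 1, 2 without any one of AVP female 1, AVP female 2, saline female 2 and saline female 4, and 6, 8 and 9 without AVP male 3, saline male 2 and AVP male 1, while 0.376% to 1.84% of all genes were higher in the 15 fits that left out 1 library. With sex as the term of interest and treatment in the fit, 42 of 43 members had a positive difference (female minus male), against 47.3% of all genes. By treatment, 43 were higher in females among the AVP embryos, against 57.3% of all genes, and 21 among the saline embryos, against 39.1%, or 19 without saline male 3, against 44.98%. In that fit 0 members passed, against 0% of genes, and 1 was higher at an unadjusted p under 0.05, against 0.65% of genes, with 0 lower, against 0.743%. The sex comparison includes saline male 3 as labelled, and 0 genes of any kind passed there, while 7 passed without that library. Without it 43 members had a positive difference, against 53.3% of all genes.

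The entry genes start the cycle. Cyclin D2 (Ccnd2), a G1 cyclin of cortical progenitors, stood at 84.9, 84.5 and 89.9 TPM in AVP females and 59.6, 70.5, 78.9 and 53.5 TPM in saline females. All 3 AVP females lay above all 4 saline females as deposited, but not with median-of-ratios scaling, and the log2 fold change was 0.41 ± 0.14 (SE) with an unadjusted limma p of 0.0159 and a p of 0.0571 by exact permutation (two-sided), which 3 against 4 samples cannot go below. In males Ccnd2 stood at 57.4, 71.5, 96.9 and 83.8 TPM in AVP males and 68.7, 75.7, 71.9 and 68.9 TPM in saline males, with the groups overlapping and a log2 fold change of 0.09 ± 0.14 (SE). In the fit of all libraries the Ccnd2 log2 fold change was 0.24 ± 0.11 (SE), with an adjusted p of 0.477 by limma. The share of all genes that separate the female groups was not counted.

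Cyclin D1 (Ccnd1), the related G1 cyclin, did not show this separation. It stood at 15.5, 22.6 and 14.7 TPM in AVP females and 16.9, 14.3, 16.7 and 13.8 TPM in saline females, so that AVP female 2 was high and the other AVP females lay among the controls. In males it stood at 15.4, 16.9, 16.5 and 16.8 TPM in AVP males and 13.9, 18.1, 18.2 and 14.4 TPM in saline males. The Ccnd1 log2 fold changes were 0.17 ± 0.17 (SE) in females and 0.03 ± 0.11 (SE) in males.

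Cdk2, the kinase of cyclins E and A, had the largest interaction among the members, the difference between the sexes in the AVP fold change. It stood at 6.72, 7.03, 8.24 and 11.7 TPM in AVP males and 8.99, 13.6, 11.1 and 9.33 TPM in saline males, where 3 of the 4 AVP males were below every saline male as deposited. In females it stood at 10.1, 14.3 and 12.3 TPM in AVP females and 8.94, 10.2, 9.33 and 10.6 TPM in saline females. The Cdk2 log2 fold change was −0.35 ± 0.19 (SE) in males and 0.30 ± 0.16 (SE) in females. The interaction was 0.65 ± 0.26 (SE) with an unadjusted p of 0.0229 and an adjusted p of 0.896 by limma. Without saline male 3 the interaction was 0.63 ± 0.28 (SE), with an unadjusted limma p of 0.0388. E2f1, the activating E2F factor of this list, stood at 8.48, 7.73, 8.65 and 13.1 TPM in AVP males and 8.96, 10.3, 9.07 and 8.42 TPM in saline males, with AVP male 4 apart from the other males. In females E2f1 stood at 8.80, 11.95 and 12.3 TPM in AVP females and 8.25, 11.2, 9.43 and 8.73 TPM in saline females, the groups overlapping. Its log2 fold changes were 0.02 ± 0.16 (SE) in males and 0.21 ± 0.17 (SE) in females. The other entry genes, Cdk4, Cdk6, Ccne1 and Ccne2, had log2 fold changes between −0.12 and 0.07 in males and between 0.09 and 0.25 in females, all with an unadjusted p above 0.05.

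Among the S phase genes, thymidylate synthase (Tyms), which makes the thymidine nucleotide for DNA, was the one member past an unadjusted p of 0.05 in males. It stood at 21.6, 27.9, 26.2 and 33.7 TPM in AVP males and 19.8, 26.4, 19.8 and 16.8 TPM in saline males. Only saline male 2 overlapped the AVP males, lying above AVP male 1 and AVP male 3. The log2 fold change was 0.39 ± 0.16 (SE) with an unadjusted p of 0.0397 and an adjusted p of 0.345 by limma, and the exact permutation p was 0.0857, where 4 against 4 allows 0.0286 at the smallest. In females Tyms stood at 26.9, 27.7 and 33.8 TPM in AVP females and 22.1, 26.3, 27.5 and 19.6 TPM in saline females, where saline female 3 lay among the AVP values, and the log2 fold change was 0.30 ± 0.15 (SE). Over all libraries it was 0.35 ± 0.11 (SE), the smallest unadjusted p of the members there at 0.00707, with an adjusted p of 0.462 by limma.

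The helicase subunits Mcm2 and Mcm4 separated the female groups, each with an exact permutation p of 0.0571, the smallest that 3 against 4 samples allow. The share of all genes that separate these groups was not counted. Mcm4 stood at 18.4, 21.2 and 19.3 TPM in AVP females and 15.3, 16.02, 17.3 and 14.4 TPM in saline females, and all 3 AVP females lay above all 4 saline females. Its log2 fold change was 0.31 ± 0.12 (SE), with an unadjusted p of 0.0312 by limma. In males Mcm4 stood at 15.9, 17.7, 15.1 and 19.9 TPM in AVP males and 15.4, 18.1, 16.7 and 14.8 TPM in saline males, with a log2 fold change of 0.07 ± 0.11 (SE) and overlapping groups. Mcm2 stood at 16.1, 17.3 and 15.1 TPM in AVP females and 12.3, 13.7, 13.9 and 12.1 TPM in saline females, without overlap, and its log2 fold change was 0.30 ± 0.12 (SE) with an unadjusted limma p of 0.0380. In males Mcm2 stood at 11.6, 12.7, 10.9 and 18.5 TPM in AVP males and 11.9, 16.2, 14.3 and 11.3 TPM in saline males, where the AVP group held both the highest and the lowest male. Its log2 fold change was −0.02 ± 0.18 (SE).

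Pcna varied little. It stood at 122, 138, 132 and 163 TPM in AVP males and 133, 146, 134 and 125 TPM in saline males. In females it stood at 135, 137 and 168 TPM in AVP females and 128, 149, 145 and 122 TPM in saline females. The groups overlapped in both sexes, and the 95% confidence interval of the log2 fold change ran from −0.17 to 0.25 in males and from −0.15 to 0.36 in females. Of the remaining S phase genes, Mcm3, Mcm5, Mcm6, Mcm7, Rrm1, Rrm2, Gins2, Cdc6 and Cdt1, all had a positive log2 fold change in females, from 0.05 for Cdt1, a licensing factor, to 0.43 for Cdc6. In males they ran from −0.21 for Cdt1 to 0.11 for Mcm3. None had an unadjusted p under 0.05 in either sex.

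Mki67 is expressed in all phases of active division and peaks in G2 and mitosis. Its gene lies on chromosome 7, from 135689784 to 135716361 of GRCm38 on the minus strand. It stood at 7.38, 12.4, 10.4 and 17.6 TPM in AVP males and 9.15, 13.8, 10.9 and 11.1 TPM in saline males. As deposited, AVP male 1 was the lowest and AVP male 4 the highest of all 15 libraries, while with median-of-ratios scaling saline female 1 was the lowest. The 95% confidence interval of the male log2 fold change ran from −0.50 to 0.57 around 0.03 ± 0.24 (SE). In females Mki67 stood at 11.9, 16.95 and 14.8 TPM in AVP females and 8.36, 10.8, 11.6 and 12.97 TPM in saline females, where AVP female 1 lay below saline female 4. The log2 fold change in females was 0.40 ± 0.19 (SE), with an unadjusted limma p of 0.0664 and an exact permutation p of 0.114.

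Cdk1, the mitotic kinase, and Top2a, the topoisomerase that untangles sister DNA, had the largest fold changes of the 20 G2/M genes in females. Cdk1 stood at 61.5, 66.5 and 80.5 TPM in AVP females and 38.01, 60.1, 48.3 and 49.6 TPM in saline females, with all 3 AVP females above all 4 saline females as deposited, but not with median-of-ratios scaling. The log2 fold change was 0.51 ± 0.16 (SE) with an unadjusted p of 0.0131 and an adjusted p of 0.999 by limma. In males Cdk1 stood at 41.9, 48.02, 45.7 and 79.7 TPM in AVP males and 41.1, 62.8, 47.4 and 44.7 TPM in saline males, where AVP male 4 was high and the other 3 AVP males lay within the saline range, and the log2 fold change was 0.10 ± 0.21 (SE). Top2a stood at 47.2, 58.5 and 64.9 TPM in AVP females and 36.3, 42.7, 42.5 and 47.2 TPM in saline females, where AVP female 1 and saline female 4 were level, although with median-of-ratios scaling the female groups did not overlap. Its log2 fold change was 0.42 ± 0.14 (SE), with an unadjusted limma p of 0.0146. For Cdk1 and Top2a too, the share of all genes that separate the female groups was not counted. In males Top2a stood at 33.8, 41.7, 46.3 and 63.1 TPM in AVP males and 35.8, 55.5, 40.3 and 37.2 TPM in saline males, with a log2 fold change of 0.11 ± 0.20 (SE).

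Cyclin B1 (Ccnb1), which activates Cdk1, stood at 25.02, 30.3 and 30.5 TPM in AVP females and 18.7, 26.4, 23.3 and 22.6 TPM in saline females. AVP female 1 lay below saline female 2, and the log2 fold change was 0.33 ± 0.14 (SE) with an unadjusted limma p of 0.0489. In males it stood at 19.1, 20.7, 21.2 and 31.1 TPM in AVP males and 20.6, 28.8, 19.8 and 21.4 TPM in saline males, with a log2 fold change of 0.01 ± 0.17 (SE). Tpx2, a spindle assembly factor that activates aurora kinase A, stood at 18.5, 22.5 and 23.7 TPM in AVP females and 14.3, 18.6, 16.9 and 16.8 TPM in saline females, where AVP female 1 lay just under saline female 2, although with median-of-ratios scaling the female groups did not overlap. Its log2 fold change was 0.36 ± 0.14 (SE) in females and 0.05 ± 0.18 (SE) in males. It stood at 13.6, 15.3, 18.9 and 24.96 TPM in AVP males and 16.2, 18.9, 18.6 and 14.9 TPM in saline males. The share of all genes that separate the female groups on either scale was not counted.

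Survivin (Birc5), a subunit of the chromosomal passenger complex, was among the members past an unadjusted p of 0.05 over all libraries. It stood at 20.5, 25.2, 24.6 and 34.98 TPM in AVP males and 18.6, 25.1, 22.1 and 20.8 TPM in saline males. In females it stood at 24.1, 27.4 and 39.6 TPM in AVP females and 19.04, 27.5, 23.5 and 24.2 TPM in saline females, with AVP female 3 at the highest level of all 15 libraries and the groups overlapping. The log2 fold change over all libraries was 0.29 ± 0.13 (SE), with an unadjusted p of 0.0339 and an adjusted p of 0.470 by limma, and it was 0.26 ± 0.16 (SE) in males and 0.34 ± 0.19 (SE) in females. Cenpf, a kinetochore protein, was the member past an unadjusted p of 0.05 between the sexes, with a log2 difference of 0.42 ± 0.17 (SE) (female minus male) and an adjusted limma p of 1.0. It stood at 4.40, 9.21, 5.23 and 7.97 TPM in AVP males and 4.85, 6.91, 4.88 and 5.98 TPM in saline males. In females it stood at 7.43, 8.96 and 9.02 TPM in AVP females and 8.55, 11.5, 5.45 and 7.18 TPM in saline females, where its highest level of all libraries was in saline female 2. Its log2 fold changes with AVP were 0.19 ± 0.23 (SE) in males and 0.09 ± 0.24 (SE) in females.

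The other 13 G2/M genes had positive log2 fold changes in females, from 0.13 for Aspm to 0.39 for Ube2c, the ubiquitin-conjugating enzyme of the anaphase-promoting complex. Ube2c was the only one of them with an unadjusted p under 0.05, at 0.0389 by limma. In males they ran from −0.25 for Aurkb, the kinase of the passenger complex, to 0.14 for Ube2c. Bub1b separated the female groups as deposited, at 13.16 TPM or more with AVP and 13.05 TPM or less with saline. With median-of-ratios scaling its female groups overlapped, and the share of all genes that separate them was not counted.

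Among the exit genes, Cdkn1a encodes an inhibitor of cyclin-dependent kinases that slows entry into S phase. Cdkn1a, whose gene lies on chromosome 17 from 29090976 to 29100727 of GRCm38 on the plus strand, stood at 9.12, 12.6, 8.43 and 6.22 TPM in AVP males and 11.4, 9.86, 8.76 and 7.77 TPM in saline males. In females it stood at 11.4, 13.4 and 4.91 TPM in AVP females and 11.95, 9.68, 8.97 and 10.4 TPM in saline females, so that as deposited the AVP females held both the lowest and the highest level of all 15 libraries, while with median-of-ratios scaling AVP male 2 was the highest. As deposited, the lowest levels of the 15 were in AVP female 3 and AVP male 4, the 2 libraries with the highest G2/M level, while AVP female 2, the third in the G2/M level, had the highest Cdkn1a. The log2 fold changes were −0.08 ± 0.20 (SE) in males and −0.15 ± 0.31 (SE) in females, and without AVP female 3 the latter was 0.27. Cdkn1b stood at 78.4, 67.6, 81.4 and 96.7 TPM in AVP males and 82.9, 86.9, 94.03 and 85.02 TPM in saline males. In females it stood at 76.9, 92.2 and 86.9 TPM in AVP females and 71.5, 88.8, 94.8 and 70.3 TPM in saline females. The Cdkn1b groups overlapped in both sexes, with log2 fold changes of −0.12 ± 0.10 (SE) in males and 0.08 ± 0.13 (SE) in females.

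The S phase level was then set against the G2/M level within each library. The difference, S phase minus G2/M, had a mean of 0.03 ± 0.22 (SD, n = 4) in AVP males and 0.03 ± 0.10 (SD, n = 4) in saline males. In females it was −0.09 ± 0.13 (SD, n = 3) with AVP and 0.01 ± 0.09 (SD, n = 4) with saline. It ran from 0.28 in AVP male 1 down to −0.22 in AVP male 4, the libraries with the lowest and the highest G2/M level as deposited. The group difference, 0.001 in males and −0.10 in females, was smaller than or close to the spread between embryos of a group. Without saline male 3 the male difference was −0.007. Within the runs of sample numbers it was 0.14 and −0.13 in males and 0.02 and −0.15 in females.

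Genes of the same pathways outside the 43 were taken from lists set by known function. Their counts stand beside 36.9% of all genes positive in females, with a median of −0.05, and 26.4% in males, with a median of −0.10. At an unadjusted p under 0.05, 2.34% of all genes were higher and 2.17% lower in females. In males 1.11% were higher and 12.4% lower, and over all libraries 0.683% were higher and 9.69% lower. Of 47 other G2 and mitosis genes, 46 had a positive fold change in females, 10 at an unadjusted p under 0.05 and 0 after adjustment, with a median log2 fold change of 0.31. The smallest p-values belonged to Kif4, a chromosome kinesin, with 0.54 ± 0.18 (SE), Ncaph, a condensin subunit, with 0.50 ± 0.17 (SE), and Nuf2, a kinetochore protein, with 0.49 ± 0.17 (SE), on the log2 scale. In males 25 of the 47 were positive, with a median of 0.01, and Cdc25b, the phosphatase that activates Cdk1, was lower at an unadjusted limma p of 0.0246 (log2 fold change −0.44). Of 34 tested other S phase genes (35 listed), 29 were positive in females with a median of 0.12, led by Tk1, thymidine kinase, at 0.44, and 14 in males with a median of −0.05, where Dut, the dUTPase that keeps uracil out of DNA, had 0.22 at an unadjusted limma p of 0.0219. Dut was also on the list of changed genes that the study made from these samples. Over all libraries Gmnn, the licensing inhibitor geminin, had a log2 fold change of 0.40 at an unadjusted limma p of 0.0101.

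Of 16 E2F and pocket protein genes, 10 were positive in females (median 0.07) and 3 in males (median −0.13). In males E2f4, a repressor E2F, was lower by an unadjusted limma p of 0.0303, and in females Lin37, a subunit of the DREAM repressor complex, by 0.0216. The interaction was positive for E2f7, a late repressor, at 0.66 with an unadjusted limma p of 0.0333. Of 15 tested other exit genes (17 listed), 9 were positive in females (median 0.05) and 5 in males (median −0.09). Cdkn1c, the inhibitor p57, averaged 157 TPM in AVP males and 120 TPM in saline males, a log2 fold change of 0.39 at an unadjusted limma p of 0.0233, and Tob1, an antiproliferative factor, was lower over all libraries by −0.29 at 0.00269. Trp53 averaged 53.0 TPM in AVP males and 65.1 TPM in saline males, with a log2 fold change of −0.31 at an unadjusted limma p of 0.0274. None of these passed the adjusted test. At an unadjusted p under 0.05, 12.4% of all genes were lower and 1.11% higher in males. In females 2.17% were lower, over all libraries 9.69% were lower, and in the interaction 2.52% were positive.

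Markers of intermediate progenitors and blood moved with the G2/M level between libraries. The mean log2 level of the intermediate progenitor markers, relative to the 15-library mean, was −0.45 in AVP male 1, 0.45 in AVP male 4, 0.46 in AVP female 2 and 0.33 in AVP female 3. The 5 tested red blood cell markers (7 listed) stood at 1.45 in AVP female 3 and 1.09 in AVP male 4, and the lowest were −1.05 in saline female 1 and −0.99 in saline male 1. Oligodendrocyte precursor markers ran the other way, with their lowest level of −0.78 in AVP female 3. Radial glia markers were highest in AVP female 2 at 0.42 and stood at −0.05 in AVP female 3.

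**Figure D4:**
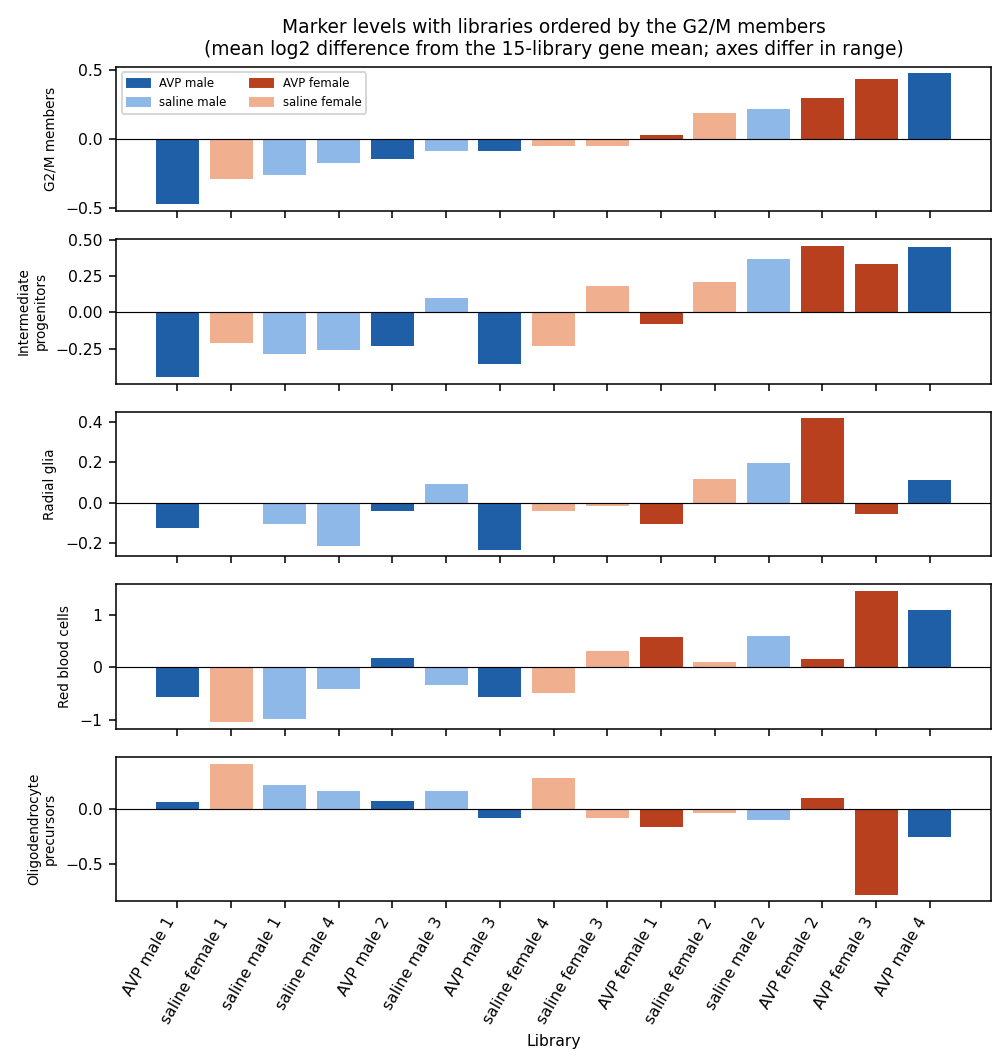
Bars give the mean log2 difference from the 15-library gene mean for the G2/M members and 4 marker lists, with the libraries ordered by the G2/M level and coloured by group. Intermediate progenitor and red blood cell markers are high at the right end, where AVP male 4 and AVP female 3 stand, and oligodendrocyte precursor markers are lowest in AVP female 3 at −0.78.

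In females, red blood cell, meningeal fibroblast, endothelial and microglia markers had positive fold changes throughout. Oligodendrocyte precursor and ganglionic eminence markers had negative ones, where 36.9% of all genes were positive. At an unadjusted p under 0.05, 2.34% of all genes were higher and 2.17% lower. Of the 7 red blood cell markers, 5 were tested and 5 were higher at an unadjusted p under 0.05, and the 7 summed to 5129 to 13658 TPM in AVP females and 2241 to 5707 TPM in saline females. Of 7 meningeal fibroblast markers, 7 were positive and 6 passed that threshold, with sums of 128 to 174 TPM and 76.1 to 93.6 TPM, led by the collagen-binding protein Dcn at a log2 fold change of 0.97. Of 7 endothelial markers, 7 were positive and 4 passed, with sums of 179 to 183 TPM and 100 to 161 TPM. Of 7 intermediate progenitor markers tested (8 listed), 5 were positive and 1, Neurog2, passed, with sums of 143 to 219 TPM and 130 to 176 TPM. Of 12 radial glia markers, 7 were positive and 1, Nes, passed, with sums of 2201 to 3395 TPM and 2446 to 2869 TPM. Of 5 oligodendrocyte precursor markers, 5 were negative and 2, Olig1 and Olig2, passed, with sums of 33.7 to 61.1 TPM and 62.5 to 94.6 TPM. Of 7 microglia and macrophage markers, 7 were positive and 1, Mrc1, passed, with sums of 58.3 to 66.5 TPM and 34.9 to 66.6 TPM. Of 10 cortical neuron markers, 4 were positive and 0 passed, with sums of 3401 to 4020 TPM and 3788 to 4206 TPM. Of 9 tested ganglionic eminence markers (10 listed), 0 were positive and 0 passed, with sums of 164 to 264 TPM and 220 to 250 TPM. Choroid plexus markers, of which 3 of 6 were tested, summed to 16.8 to 2264 TPM in AVP females and 4.36 to 950 TPM in saline females. No marker of these lists was at 0 in every library, none passed the adjusted test in limma, and their part in the female difference was not tested. With a different model (Sleuth), the study listed Dcn, Mrc1, Col1a1 and Col1a2 among its changed genes in these females.

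In males, 26.4% of all genes were positive, and the counts of positive markers stand beside that share. At an unadjusted p under 0.05, 1.11% of all genes were higher and 12.4% lower. The red blood cell markers summed to 3184 to 10049 TPM in AVP males and 2453 to 7128 TPM in saline males, with 5 of 5 tested positive and 0 past an unadjusted p of 0.05. Intermediate progenitor markers summed to 111 to 212 TPM and 123 to 194 TPM, with 2 of 7 positive. Radial glia markers summed to 2097 to 2948 TPM and 2076 to 2763 TPM, with 5 of 12 positive and Sox9 lower at an unadjusted limma p of 0.031. Of the other lists, 1 of 10 cortical neuron, 4 of 9 ganglionic eminence, 0 of 5 oligodendrocyte precursor, 1 of 7 endothelial, 2 of 7 microglia and macrophage and 7 of 7 meningeal fibroblast markers were positive. Without saline male 3 these counts were 3, 2, 0, 1, 2 and 7, against 30.1% of all genes. Choroid plexus markers summed to 5.17 to 633 TPM and 2.16 to 699 TPM.

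To give these shared movements a size, Mki67 was related across the 15 libraries to 8 genes, each standing for a process or cell type. The strongest relation was with Eomes, the transcription factor of intermediate progenitors, with a Pearson r of 0.87 and a Spearman rho of 0.86 (permutation p = 4e-05 and 0.00012, adjusted 0.00032 and 0.00096). Pax6, the radial glia factor, gave r = 0.82 and rho = 0.69 (permutation p = 0.00016 and 0.0056, adjusted 0.00064 and 0.0149). Alas2, the heme synthesis enzyme of red blood cells, gave r = 0.80 and rho = 0.82 (permutation p = 3e-04 and 0.00028, adjusted 8e-04 and 0.00112). Pcna gave r = 0.63 and rho = 0.61 (permutation p = 0.0112 and 0.0164, adjusted 0.0224 and 0.0328). The other 4 relations did not pass: r was 0.40 for Cdkn1b, 0.28 for the neuronal gene Neurod6, 0.20 for the endothelial gene Cldn5 and 0.01 for Dlx2 of the ganglionic eminence, with rho of 0.34, 0.22, 0.24 and −0.14 and adjusted permutation p-values from 0.228 to 0.973 for r and from 0.336 to 0.617 for rho.

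Without AVP male 1 and AVP male 4, the 2 libraries farthest from the median of Mki67, r was 0.85 for Eomes, 0.67 for Pax6, 0.76 for Alas2 and 0.41 for Pcna. Within the first run of sample numbers (7 libraries) r was 0.80 for Eomes, 0.58 for Pax6, 0.88 for Alas2 and 0.82 for Pcna, and within the second (8 libraries) it was 0.92, 0.92, 0.71 and 0.58. The raw p-values were two-sided from 100000 resamples. Genes of 1 library share its total and its dissection, and all 4 treatment groups are in these relations.

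**Figure D5:**
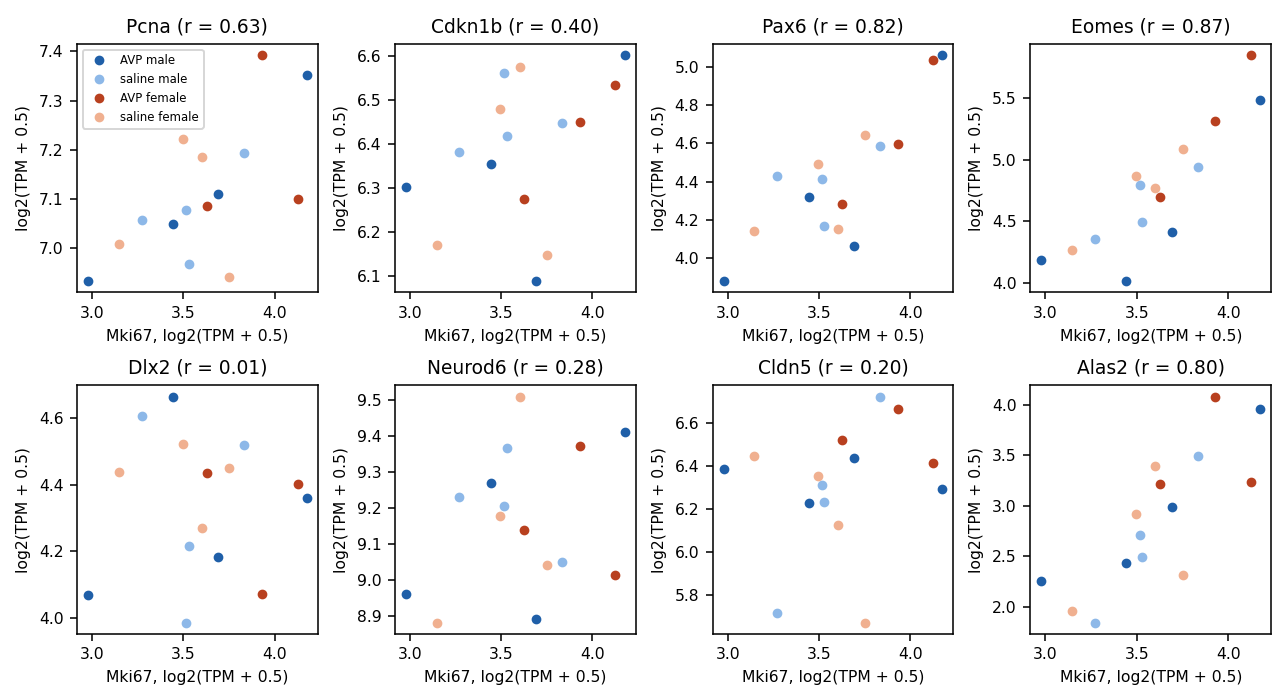
Level of 8 genes against Mki67, both as log2(TPM + 0.5), in the 15 libraries coloured by group, with Pearson's r above each panel. Eomes, Pax6 and Alas2 rise along Mki67 with r of 0.87, 0.82 and 0.80, while Dlx2 shows no trend at 0.01.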

How the data were processed

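mRNA-seq libraries were made from E18 dorsal forebrain RNA with a stranded kit and sequenced on 2 lanes. Adapters were removed by the authors with Trim Galore 0.4.1, and reads were quasi-mapped to GENCODE transcripts of GRCm38 and quantified with kallisto 0.43.1. The authors left out 1 AVP female for high variance. The deposited values are TPM per transcript, read as such because each library sums to 1000000 and values are not whole. The deposited table holds no further scaling between libraries, and the scaled reads per base of the authors' own model were not used here. TPM hold no counts, so depth is unknown and no count model was used.

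Gene values are sums over the transcripts that GENCODE M21 assigns to a gene. Of 133849 transcripts, 404 had no gene there, with 0.154% to 0.199% of the TPM. Genes that reached 1 TPM in 50% or more of the libraries of a fit were tested as log2(TPM + 0.5), a scale that understates changes of low genes, with limma 3.58.1 in R 4.3.3 (mean-variance trend, Benjamini-Hochberg adjustment over all genes, threshold 0.05). Each sex was fitted on its own with a single treatment term. The interaction, treatment with sex as a term, and sex with treatment as a term were fitted over the 15 libraries. Single members were also tested by exact two-sided permutation (SciPy 1.17.1). The fits within each sex were tested on simulated data with changes larger than any of the members. That does not show whether changes as small as theirs would be found. Values in every library are given for Mki67, Top2a, Pcna, Mcm2, Ccnd1, Ccnd2, Cdk1, Ccnb1, Cdkn1a, Cdkn1b and E2f1, and for up to 5 members per fit with the smallest unadjusted p under 0.05. Of the other pathway and marker lists, up to 3 genes per fit were named by the same measure. The members and lists were chosen with earlier results of these data known. Alternatives changed the pseudocount, filter, scaling, trend, run term and threshold, and left out each library in turn.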

Additional observations from a re-analysis of the deposited data

Results flagged for a closer look

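In AVP males, 1 library stood apart from the other 3 for a pair of members. Cdk1 was 79.7 TPM in AVP male 4 and 41.9 to 48.0 TPM in the others, and E2f1 was 13.1 TPM there and 7.73 to 8.65 TPM in the others. In saline males, the library labelled saline male 3 stood apart for Xist at 266 TPM, and for the Y-linked genes Ddx3y at 0.11 TPM, Kdm5d at 0.117 TPM and Eif2s3y at 0.0411 TPM. Of 78 groups of 4 libraries examined, 6 held such a library, while chance gives about 4. The sex-linked ones all lay in saline male 3 and the others in AVP male 4. They were thus not independent, and the count does not weigh any single one of them.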

How the results depend on the processing

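No member passed an adjusted p of 0.05 under any setting tried, and the lowest was 0.0961 by limma, for Tyms over all libraries without AVP female 2. Over all genes, the 1 call in males became 0 with a pseudocount of 1, with the filter of 5 TPM, with the run term and with 1 fit of all 15 libraries, and 2 without the trend, and leaving out single libraries gave 0 to 6 calls in males (6 without AVP male 2, 5 without AVP male 3 or AVP male 4, 0 without AVP male 1 or saline male 2, 3 or 4), 0 to 6 in females (6 without saline female 4), 0 to 1 for the interaction, 0 to 1 over all libraries and 0 to 7 for sex (7 without saline male 3 or saline female 1), where the threshold of 0.1 gave 1. Of the 1150 values recomputed, 1093 kept their direction and their side of the threshold or moved by less than 1 SD between libraries, and 39 of the 936 with a sign changed it, 31 of them fold changes of single genes. S phase minus G2/M in males, 0.001 as deposited, fell below 0 in 6 settings, to −0.082 without AVP male 1. Leaving out single libraries gave male log2 fold changes of −0.17 to 0.23 for Mki67, −0.046 to 0.25 for Top2a, −0.042 to 0.098 for Pcna, −0.17 to 0.077 for Mcm2, −0.037 to 0.088 for Ccnd1, −0.024 to 0.23 for Ccnd2, −0.099 to 0.23 for Cdk1, −0.14 to 0.13 for Ccnb1, −0.24 to 0.078 for Cdkn1a, −0.14 to 0.11 for E2f1, −0.11 to 0.18 for Tpx2 and −0.0026 to 0.13 for Mcm4, and female ones of −0.021 to 0.28 for Ccnd1, −0.42 to 0.27 for Cdkn1a and −0.074 to 0.26 for Cenpf. In males, Mcm2 turned to 0.12 with quantile normalization and 0.085 with median-of-ratios scaling, and Cdkn1a to 0.079 and 0.020. With median-of-ratios scaling, r was 0.54 for Mki67 with Pcna (adjusted permutation p = 0.0778) and −0.090 for Mki67 with Dlx2. The cause of these changes was not tested. The G2/M median relative to all genes stayed between 0.06 and 0.23 in males except without AVP male 4 (−0.05), and between 0.19 and 0.46 in females. Genes past an unadjusted p of 0.05 in males split into 169 higher and 1888 lower as deposited, and 900 and 847 with median-of-ratios scaling. TPM carry no depth, so counting error is not known for low members such as Cdc6. No paired analysis was possible because the labels give the groups no shared replicate numbers.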
